A study of Mus musculus with 48 samples.

Results

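The potassium channel genes described here are the rows of a mouse gene count table whose symbol starts with Kcn and goes on with lower-case letters and a final number, such as Kcna2 or Kcnma1. The pattern found 92 genes among 36935. Of these, 76 reached at least 1 CPM (the counts-per-million scale) in 3 or more of 48 libraries and are described below. They comprised 35 of 40 voltage-gated pore subunits (Kcna to Kcnd, Kcnf to Kcnh, Kcnq, Kcns and Kcnv), 11 of 15 auxiliary subunits (Kcnab, Kcne, Kcnip and Kcnmb), 11 of 15 inward rectifiers (Kcnj), 11 of 14 two-pore channels (Kcnk) and all 8 calcium- or sodium-activated channels (Kcnma, Kcnn, Kcnt and Kcnu). The 16 genes below that level were Kcna10, which had no count, and Kcne1, Kcne2, Kcne4, Kcng2, Kcng4, Kcnj1, Kcnj13, Kcnj15, Kcnj16, Kcnk7, Kcnk15, Kcnk18, Kcnmb3, Kcnq1 and Kcnv2. The nearest of them, Kcnq1 and Kcnk18, reached 1 CPM in 2 libraries each. Of the 76 genes, 16 met the level only through day 15 libraries, and Kcnip4, Kcnk13, Kcnmb2 and Kcnv1 only through the day 15 libraries of the parental line.

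Potassium channels let potassium leave the cell and so set the resting potential, end the action potential and shape how often a neuron fires. Voltage-gated channels open on depolarization, inward rectifiers and two-pore channels carry current near rest, and calcium- or sodium-activated channels couple firing to the ions that enter during it. Auxiliary subunits bind the pore-forming proteins and change their gating or their transport to the membrane, and pluripotent cells, which do not fire, use a different set of these genes from neurons.

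The cells were E14 mouse embryonic stem cells (ESCs) in 4 genotypes, named in the labels KAT6A-/- KO, KAT6B-/- KO, KAT6A-/-; KAT6B-/- dKO (double KO below) and E14 wildtype. KAT6A and KAT6B are histone acetyltransferases. Each genotype was sampled as untreated ESCs on day 0, as embryoid bodies without LIF on day 2, as embryoid bodies given all-trans retinoic acid by day 6, and as plated neural cells in neuronal medium on day 15, with 3 libraries per group from 3 independent differentiation experiments. RNA depleted of ribosomal RNA was sequenced from bulk cultures, and how many clones stand behind each knockout line is not given in the labels. The p-values below rest on the spread between the 3 libraries within groups. That spread was estimated over all 12 libraries of a full fit, with information shared across genes. A comparison of a knockout with E14 thus also carries the spread of the other knockouts of that day.

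The 48 libraries held 22499375 to 72229461 counts each. Kat6a transcripts in KAT6A KO groups were at 50.2% to 66.9% of the E14 level of the same day, and Kat6b transcripts in KAT6B KO groups at 59.6% to 96.4%. In double KO groups Kat6a was at 59.5% to 75% and Kat6b at 65.5% to 94.6%, and the position of the edited part in either gene is not given in the labels. On day 15 the library labelled KAT6B KO replicate 1 had 126 CPM of Kat6b, above the 91.8 to 105 CPM of E14, while the other 2 KAT6B KO libraries had 73.9 and 79.6 CPM. Summed over Tubb3, Map2, Rbfox3, Snap25, Syt1 and Dcx, neuron markers on day 15 had 259, 817 and 1070 CPM in KAT6A KO libraries, 731, 54.5 and 307 CPM in KAT6B KO, 644, 643 and 115 CPM in double KO, and 2100, 1150 and 1350 CPM in E14. Every knockout library thus lay below every E14 library in neuron markers, and on day 0 E14 had 126 to 165 CPM. The glial markers were Gfap, Aqp4, Aldh1l1, S100b, Olig2 and Mbp. On day 15 they summed to 49.1 to 87.5 CPM in KAT6A KO, 22.2 to 48.2 CPM in KAT6B KO, 21.1 to 44.6 CPM in double KO and 149 to 318 CPM in E14. Gfap and Aldh1l1 led the E14 sum, with means of 129 and 86.4 CPM. Mean Mbp was 29.3 CPM in KAT6A KO, 17.6 CPM in KAT6B KO, 18.4 CPM in double KO and 23.8 CPM in E14. S100b had means of at most 0.148 CPM and was lowest in E14. Markers of trophoblast and simple epithelium summed to 168 to 1280 CPM over the 12 day 15 libraries, those of endothelium and blood to 46.1 to 249 CPM and those of heart muscle to 5.77 to 9.99 CPM. The library labelled KAT6B KO replicate 1 had the highest mesenchyme and smooth muscle sum, at 18100 CPM, against 1880 to 8830 CPM in the other 11 day 15 libraries.

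The promoter windows of 3 genes are shown because these genes recur in the results below. No expression result below uses the window sequences. Kcnk5 and Kcnj3 were among the leading channel genes of stem cells and early embryoid bodies and differed with genotype, and Kcnc1 was among those that rose most in plated neural cells. The windows run from 250 bases before to 50 bases after the transcription start annotated by RefSeq on GRCm38.p6, and capitals mark each CG dinucleotide. The Kcnk5 window is chr14:20181733-20182032 on the minus strand, the Kcnj3 window chr2:55435720-55436019 on the plus strand and the Kcnc1 window chr7:46396218-46396517 on the plus strand.
Kcnk5: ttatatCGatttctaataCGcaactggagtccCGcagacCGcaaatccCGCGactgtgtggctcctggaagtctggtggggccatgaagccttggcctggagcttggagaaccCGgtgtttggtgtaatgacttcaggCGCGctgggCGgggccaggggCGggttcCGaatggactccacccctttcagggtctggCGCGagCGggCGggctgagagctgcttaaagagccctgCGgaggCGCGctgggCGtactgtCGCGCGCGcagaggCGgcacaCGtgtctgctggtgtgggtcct
Kcnj3: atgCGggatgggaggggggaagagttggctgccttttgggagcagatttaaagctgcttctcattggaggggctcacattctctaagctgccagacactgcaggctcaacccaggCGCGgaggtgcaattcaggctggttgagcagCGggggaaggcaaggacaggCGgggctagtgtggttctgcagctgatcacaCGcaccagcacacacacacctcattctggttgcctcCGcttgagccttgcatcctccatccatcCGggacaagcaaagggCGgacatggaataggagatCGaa
Kcnc1: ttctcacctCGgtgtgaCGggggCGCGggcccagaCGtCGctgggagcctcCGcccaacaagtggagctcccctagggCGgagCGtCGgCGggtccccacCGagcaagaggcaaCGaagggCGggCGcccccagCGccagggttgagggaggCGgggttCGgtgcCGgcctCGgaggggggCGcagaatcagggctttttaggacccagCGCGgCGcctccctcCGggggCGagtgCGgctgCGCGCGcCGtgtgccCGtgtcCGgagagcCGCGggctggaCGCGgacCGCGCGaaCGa
The 3 windows held 26, 10 and 41 CG dinucleotides for Kcnk5, Kcnj3 and Kcnc1. RefSeq windows were matched for 55 of the 76 described genes, some with several starts, and the median over their 76 windows was 10.5 CG dinucleotides, against 7 over 32851 windows of all genes. The binding element of REST, a repressor of neuronal genes, has a left part CAGCACC and a right part GGACAG, which were searched on both strands. The left part was present in 10.5% of the channel windows and 7.14% of all windows, and the right part in 27.6% and 22.2%. The Kcnj3 window held the right part and the other 2 windows shown held neither. Both parts 2 bases apart were found in none of the channel windows and in 0.0365% of all windows.

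In E14 cells the potassium channel genes were higher on day 15 than on day 0 far more often than they were lower. By edgeR's quasi-likelihood test at an adjusted p of 0.05, 46 of 76 were higher and 11 lower, where 69.7% of all genes tested were called in either direction, 36.5% higher and 33.2% lower. The median log2 fold change was 1.75 over the 76 genes and 0.085 over all genes. Without the 16 genes that met the level rule only through day 15, 31 of 60 were higher and 11 lower, with a median of 1.05. The sum over the 76 genes was 1180, 773 and 833 CPM on day 15 and 322, 278 and 271 CPM on day 0, with no overlap. In bulk cultures, a change in the number of cells of a type and a change in RNA per cell cannot be told apart.

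**Figure D1:**
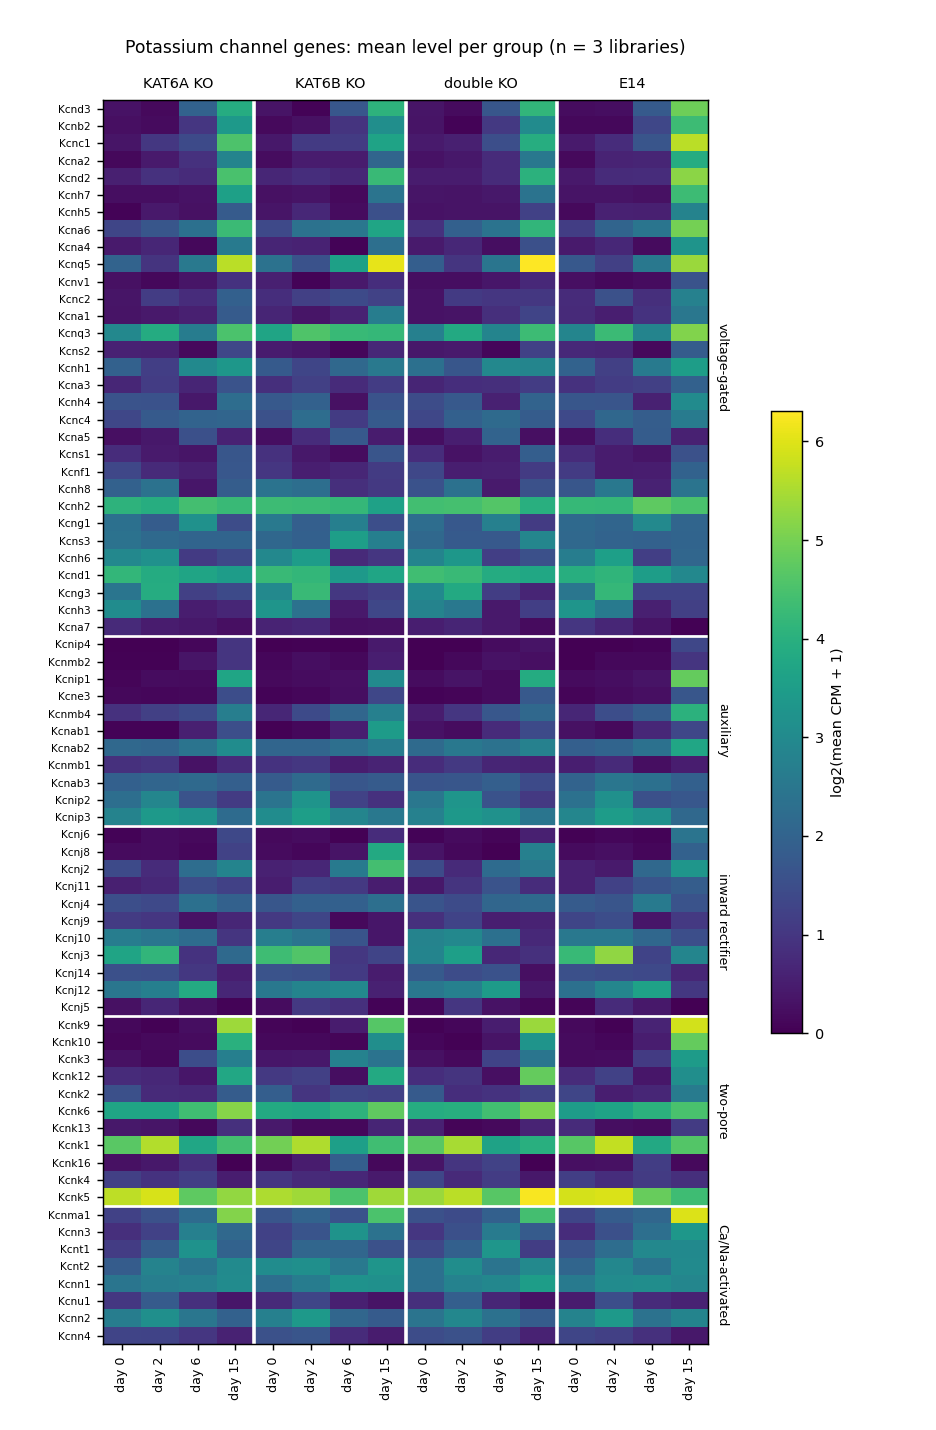
Mean level of 72 of the 76 described potassium channel genes in 16 groups, as log2(mean CPM + 1), with genes in rows by class and ordered by their E14 change on day 15 over day 0, and genotype and day in columns (n = 3 libraries each). Kcnd3, Kcnc1, Kcnip1, Kcnk9 and Kcnma1 are brighter on day 15 than on earlier days in every genotype, and Kcnk5 and Kcnk1 are bright on days 0 and 2.

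Among voltage-gated pore genes, 25 of 35 were higher on day 15 than on day 0 in E14, 4 were lower and 6 were not called. By the level rule, 6 of the 35 were included only through day 15 libraries, and all 6 were among the 25. Kcnd3, an A-type channel that inactivates fast, had 36.3, 25.4 and 25.2 CPM on day 15, against 0.099, 0.204 and 0.154 CPM on day 0. Kcnc1, whose fast channel allows high firing rates, had 68.4, 38.9 and 39.6 CPM on day 15, against 0.297, 0.408 and 0.43 CPM on day 0. All day 15 libraries were above all day 0 libraries for both genes, with log2 fold changes of 7.52 ± 0.43 (SE; adjusted p = 7.85e-09, edgeR) for Kcnd3 and 7.01 ± 0.57 (adjusted p = 1.17e-07) for Kcnc1. Kcnd2, the dominant A-type subunit of dendrites, rose by 6.72 ± 0.38, and Kcna2, an axonal delayed rectifier, by 6.81 ± 0.56.

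Families were not uniform. Of the A-type genes, Kcnd2 and Kcnd3 rose while Kcnd1 fell by 1.08 ± 0.21 on the log2 scale to 6.99, 6.08 and 7.03 CPM on day 15, against 16.2, 12.5 and 14.9 CPM on day 0. Kcna1 to Kcna6 rose, while Kcna7 had 0, 0.0842 and 0 CPM on day 15, against 1.73, 0.815 and 0.399 CPM on day 0. Of the Kcnq genes, Kcnq3 and Kcnq5 rose. Of the subunits that conduct only together with another pore subunit, Kcnf1, Kcns1, Kcns2 and Kcnv1 rose, Kcng3 fell, and Kcng1 and Kcns3 were not called. In the ether-a-go-go group, Kcnh1, Kcnh4, Kcnh5, Kcnh7 and Kcnh8 rose, and Kcnh3 fell to 1.34, 1.55 and 1 CPM on day 15, against 10.8, 6.93 and 8.63 CPM on day 0 (log2 fold change -2.72 ± 0.45, adjusted p = 0.000103). Kcnh2, which underlies the rapid delayed rectifier of the heart, stayed between 13.8 and 31.5 CPM in all 12 E14 libraries.

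Of the auxiliary genes, 7 of 11 were higher on day 15, where 36.5% of all genes were. Kcnip3 was lower, and Kcnab3, Kcnip2 and Kcnmb1 were not called. The level rule was met only through day 15 libraries by 5 of the 11, Kcnip1, Kcnip4 and Kcnmb2 among them. For Kcnip4 and Kcnmb2 these were E14 libraries only. All 5 were among the 7 higher genes, so that this count rests mostly on genes included for their day 15 level. The remaining higher genes were Kcnab2 and Kcnmb4. Kcnip1 and Kcnip4 encode cytoplasmic partners of A-type channels. Kcnip1 had 37.3, 20.1 and 23.5 CPM on day 15, against 0.0495, 0.291 and 0.0614 CPM on day 0. Kcnip4 had no count in the 3 day 0 libraries and 1.78, 1.26 and 1.56 CPM on day 15, which is at least 43.7-fold higher when day 0 is set to 3 counts over the group. Kcnmb2, a subunit of the large-conductance calcium-activated channel, also had no count on day 0 and was at least 27.7-fold higher. The neuronal subunit of that channel, Kcnmb4, rose by 4.75 ± 0.41 on the log2 scale.

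Of the inward rectifiers, 4 of 11 were higher on day 15 and 4 lower, where 36.5% of all genes were higher and 33.2% lower. Kcnj6 and Kcnj8, both among the 4 higher genes, met the level rule only through day 15 libraries. The remaining higher genes were Kcnj2 and Kcnj11, and none of the 4 lower genes was included in that way. The count of higher genes is therefore raised by the rule. Kcnj6, a subunit of the G protein-gated channels, had 7.19, 2.22 and 3.67 CPM on day 15, against 0, 0.0291 and 0.0307 CPM on day 0 (log2 fold change 7.43 ± 0.74). Its partner subunit Kcnj3 moved the other way, with 8.48, 4.82 and 5.82 CPM on day 15 and 13.8, 27.1 and 13.2 CPM on day 0 (log2 fold change -1.47 ± 0.27, adjusted p = 0.000258). The pore genes of ATP-sensitive channels, Kcnj8 and Kcnj11, rose by 4.45 ± 0.96 and 2.46 ± 0.40, and Kcnj2, a strong inward rectifier, by 4.16 ± 0.60. Kcnj10, known as a glial potassium-buffering channel, fell by 1.33 ± 0.32, Kcnj12 by 1.94 ± 0.27 and Kcnj14 by 1.64 ± 0.40.

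Of the two-pore genes, which encode background leak channels, 6 of 11 were higher on day 15 and Kcnk5 was lower. Only through day 15 libraries did 3 of the 11 meet the level rule. Kcnk9 and Kcnk10 were among them and among the 6 higher genes. Kcnk9, an acid-sensitive leak channel, had 75.6, 52.6 and 45.8 CPM on day 15, against 0.0495, 0.0582 and 0.246 CPM on day 0 (log2 fold change 8.86 ± 0.64, adjusted p = 4.29e-08). Kcnk10, opened by stretch and fatty acids, had 37.4, 20.3 and 23.2 CPM, against 0.346, 0 and 0.0921 CPM. Kcnk5, opened by alkaline pH, had 19, 25.7 and 12.9 CPM on day 15, against 71.1, 45.4 and 58.4 CPM on day 0, with no overlap (log2 fold change -1.57 ± 0.23, adjusted p = 2.87e-05). Kcnk1, a weakly inwardly rectifying leak channel, had 22.2, 23.1 and 24.9 CPM on day 15 and 27.8, 23.9 and 21.5 CPM on day 0, and the groups overlapped.

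Of the 8 calcium- or sodium-activated genes, Kcnma1, Kcnn3, Kcnt1 and Kcnt2 were higher on day 15 and Kcnn4 was lower. Kcnma1, the pore of the large-conductance channel, had 80.2, 41.8 and 63.4 CPM on day 15, against 1.04, 1.6 and 1.84 CPM on day 0 (log2 fold change 5.38 ± 0.33). Kcnn3, a small-conductance channel of the afterhyperpolarization that follows spikes, had 9.8, 7.19 and 10.6 CPM on day 15, against 0.643, 1.19 and 0.43 CPM on day 0. Kcnn4, the intermediate-conductance channel of non-excitable cells, had 0, 0.573 and 0.381 CPM on day 15, against 2.18, 1.19 and 1.17 CPM on day 0.

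Between these end points the genes followed several courses in E14. Of the 76, 45 had their highest mean on day 15, and in 38 of these every day 15 library was above every earlier one. The matching shares over all genes are not given here, and 16 of the 76 met the level rule only through day 15. Another 16 were highest on day 2, 8 on day 6 and 7 on day 0. Kcng3 had 5.15, 3.76 and 4.88 CPM on day 0, then 19.4, 18.7 and 14.5 CPM on day 2, 0.89, 2.19 and 1.13 CPM on day 6 and 1.76, 1.52 and 0.953 CPM on day 15, so that its 3 day 2 libraries stood above all others. Kcnk1 was also highest on day 2, with 54, 57.5 and 45.3 CPM on day 2 and 14.8, 14.1 and 10.1 CPM on day 6. Kcnj12 was highest on day 6, at 10.8, 13.8 and 9.27 CPM, against 3.86, 4.31 and 3.78 CPM on day 0.

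**Figure D2:**
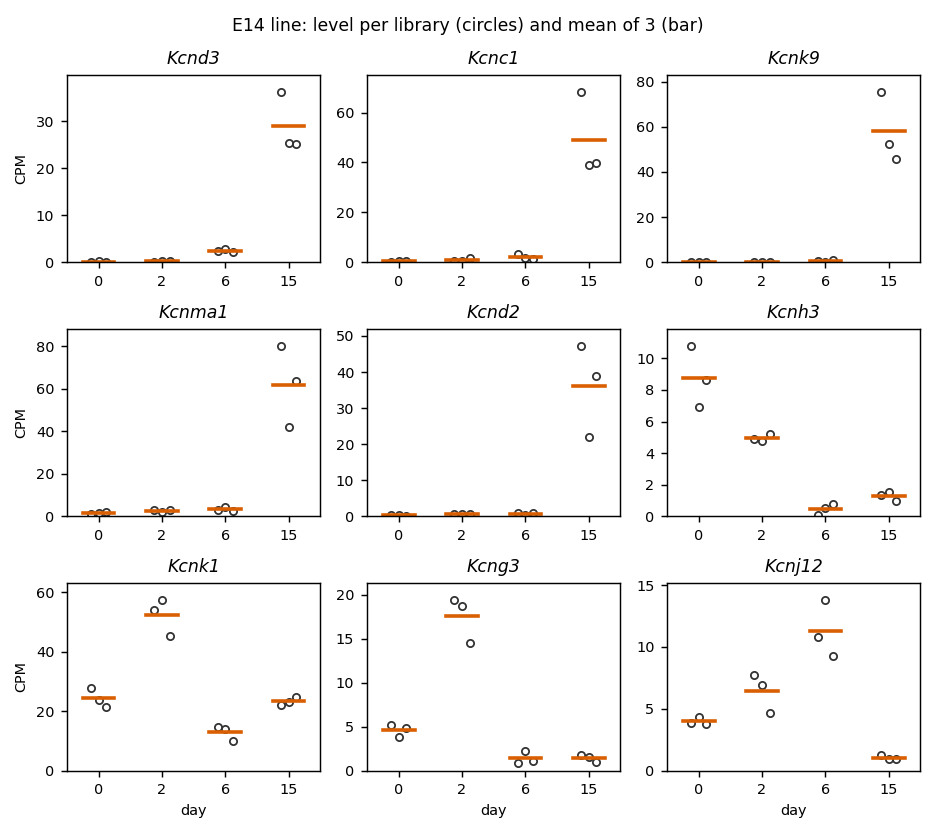
Level in CPM of 9 potassium channel genes in the 12 E14 libraries by day, with circles for libraries and bars for the mean of 3. Kcnd3, Kcnc1, Kcnk9, Kcnma1 and Kcnd2 are highest on day 15, Kcnk1 and Kcng3 on day 2, Kcnj12 on day 6 and Kcnh3 on day 0.

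On day 2 against day 0, 14 genes were higher and 3 lower, where 21.6% of all genes were called, 9.5% higher and 12.1% lower. Kcng3 rose by 1.93 ± 0.32 and Kcnk1 by 1.10 ± 0.17, and both were called in all 6 fits that left out a library, while Kcnh1, Kcnk2 and Kcnk13 fell. The count rests on single libraries: it was 2 without E14 day 0 replicate 3, 7 without E14 day 2 replicate 1 and 5 without E14 day 2 replicate 2. DESeq2 called 27, where it called 25.6% of all genes.

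On day 6 against day 0, 26 genes were higher and 16 lower, where 50% of all genes were called, 25.8% higher and 24.2% lower. Kcnd3 was already 3.96 ± 0.42 higher on the log2 scale, Kcna5 3.92 ± 0.54 and Kcnj12 1.54 ± 0.26. Kcnj3 fell by 3.67 ± 0.31 to 1.55, 1.45 and 1.17 CPM, and Kcnh3, Kcnh4, Kcnh6 and Kcnh8 also fell. On day 15 against day 6, 48 genes were higher and 12 lower, where 54.6% of all genes were called, 27.3% in each direction. Without the 16 genes that met the level rule only through day 15, 33 of 60 were higher and 12 lower, with a median log2 fold change of 1.08. Kcnj3 rose by 2.20 ± 0.29 over this interval, while Kcnk16 and Kcna5, which had risen by day 6, fell.

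Levels can be compared between genes per length. Per kilobase of annotated exon, Kcnk5 led in E14 on day 0 with a mean of 17.1 CPM per kilobase, followed by Kcnk1 with 10.9 and Kcnh2 with 3.65. On day 2 Kcnk1 led with 23.4, before Kcnk5 with 17.7, Kcnj3 with 7.14 and Kcng3 with 5.22. On day 6 Kcnk5 had 8.08, Kcnk1 5.83 and Kcnh2 5.36. On day 15 Kcnk1 again had the highest value, 10.5 CPM per kilobase, while Kcnd2 had 7.0 and Kcnk5 5.64. Two-pore channels thus held the first place on each of the 4 days.

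Genes that work with these channels were also measured. Of 15 genes for channel partners and clustering proteins, 12 could be tested and 10 were higher in E14 on day 15 than on day 0, with none lower and a median log2 fold change of 3.16, where 36.5% of all genes were higher, 33.2% lower and the median was 0.085. Dpp10, a transmembrane partner of A-type channels, rose by 9.41 ± 0.59, Lrrc38, a partner of the Kcnma1 channel, by 7.38 ± 0.83, Lgi1, a secreted ligand of the partner Adam22, by 4.31 ± 1.19, and Ank3, which anchors M-channels at the axon initial segment, by 3.83 ± 0.20. Of 14 genes for other potassium-permeable channels, transporters and pumps, 9 were higher and 2 lower. Hcn4, a pacemaker channel, rose by 5.22 ± 0.40 and the neuronal potassium-chloride exporter Slc12a5 by 4.09 ± 0.27. Slc12a7 and Atp1b3 fell.

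The change over time was also measured in each knockout against its own day 0. In KAT6A KO, 40 of 74 genes tested were higher on day 15 and 14 lower, where 68.2% of all genes were called, 35.6% higher and 32.6% lower. In KAT6B KO, 28 of 74 were higher and 9 lower, where 61.8% of all genes were called, 33.5% higher and 28.3% lower. In double KO, 35 were higher and 14 lower, where 66.9% were called, 33.9% higher and 32.9% lower. Genes that met the level rule only through day 15 are among these counts. Without them, 26 of 58 were higher and 14 lower in KAT6A KO. Of 58, 16 were higher and 9 lower in KAT6B KO, and 21 and 14 in double KO. In all 4 genotypes, 26 genes were called higher and 6 lower. The share of all genes called alike in all 4 genotypes is not given here. Some of the 26, such as Kcnk9, Kcnk10 and Kcnip1, met the level rule only through day 15. The 26 include Kcnd2, Kcnd3, Kcnc1, Kcnk9, Kcnk10, Kcnma1 and Kcnip1, and the 6 are Kcng3, Kcnh3, Kcnj3, Kcnj10, Kcnj12 and Kcnj14. Kcnf1, Kcnh4, Kcnh8, Kcnc4, Kcnk2 and Kcna5 were called higher in E14 and in none of the knockouts. None of these 6 was called in the interaction tests over all libraries, and Kcnh8 and Kcnk2 were called in the KAT6B KO interaction without the library labelled KAT6B KO day 15 replicate 1. Kcnk5 was the only gene called in opposite directions, higher in double KO and lower in E14.

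Between each knockout and E14 on days 0, 2 and 6, 1 call was made among the described genes. In double KO on day 0, Kcnj3 had 6.68, 4.05 and 7.83 CPM, against 13.8, 27.1 and 13.2 CPM in E14. All 3 double KO libraries were below all 3 E14 libraries, with a log2 fold change of -1.57 ± 0.31 (adjusted p = 0.0216, edgeR), where 2.09% of all genes were called. The call was kept in 4 of 6 fits that left out a library and lost without double KO replicate 1 or replicate 2, with adjusted p up to 0.0859. Kcnj3 was also lower in double KO without passing the test on day 2, with 5.62, 6.41 and 20.6 CPM against 37.1, 35.4 and 39.2 CPM in E14 (log2 fold change -1.80 ± 0.48, adjusted p = 0.111). On day 15 it had 0.791, 1.43 and 0.261 CPM in double KO, against 8.48, 4.82 and 5.82 CPM in E14 (log2 fold change -2.93 ± 0.80, adjusted p = 0.0705). In KAT6A KO, Kcnj3 had 9.39, 15.8 and 10.1 CPM on day 0 and 1.37, 3.92 and 5.06 CPM on day 15, which overlapped E14, and 13.3, 10 and 26.6 CPM on day 2, below every E14 library (log2 fold change -1.18 ± 0.47, adjusted p = 0.448). In KAT6B KO it had 18.1, 23.4 and 16.4 CPM on day 0, which overlapped E14. On day 2 it had 32.2, 20.5 and 17.2 CPM in KAT6B KO (log2 fold change -0.67 ± 0.46), and on day 15 2.6, 0.348 and 1.4 CPM (log2 fold change -2.13 ± 0.77, adjusted p = 0.174), below every E14 library on both days without passing the test. Differences between the knockouts were not tested.

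No described gene was called by edgeR in KAT6A KO or KAT6B KO against E14 on days 0, 2 or 6, where 0%, 0.0102% and 0% of all genes were in KAT6A KO and 0.0106%, 0% and 0.0292% in KAT6B KO. Double KO had no call on days 2 and 6, where 1.12% and 0.0682% of all genes had one. At an unadjusted p under 0.05, there were 7, 6 and 5 such genes of 61, 66 and 71 in KAT6A KO on days 0, 2 and 6, where 4.75%, 10.3% and 5.3% of all genes were. In KAT6B KO there were 9, 2 and 21, where 11.8%, 4.06% and 13% were, and in double KO 12, 13 and 3, where 18.2%, 12.7% and 8.12% were. DESeq2 called 5 in KAT6B KO on day 6, 3 in double KO on day 0 and 3 on day 2, where it called 2.62%, 5.89% and 3.1% of all genes. The lowest medians over the described genes on these days were -0.43 in KAT6B KO on day 6, with 51 of 71 estimates below 0, and -0.30 in KAT6A KO on day 2, with 52 of 66 below 0. The medians over all genes were -0.021 and 0.012 there.

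On day 15 most of the described genes had lower values in the knockouts than in E14. The median log2 fold change against E14 was -0.74 in KAT6A KO, -1.12 in KAT6B KO and -1.15 in double KO, with 57, 55 and 58 of 74 estimates below 0, while the medians over all genes were 0.0099, 0.054 and 0.0076. In double KO, 44 of 74 genes (59.5%) had all 3 libraries below all 3 E14 libraries, and 7 had all 3 above, where 20.4% of all genes were below and 21.6% above in that way. In KAT6B KO, 29 were below and 4 above, where 15% and 14.1% of all genes were, and in KAT6A KO 21 were below and 3 above, where 13.1% and 13.2% were. Without the 4 genes that met the level rule only through E14 day 15, the counts below were 40, 27 and 21 of 70 for double KO, KAT6B KO and KAT6A KO. The 3 comparisons share the E14 libraries. By class, the double KO medians were -1.23 for voltage-gated, -0.96 for auxiliary, -1.52 for inward rectifier, -0.88 for two-pore and -1.20 for calcium- or sodium-activated genes.

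**Figure D3:**
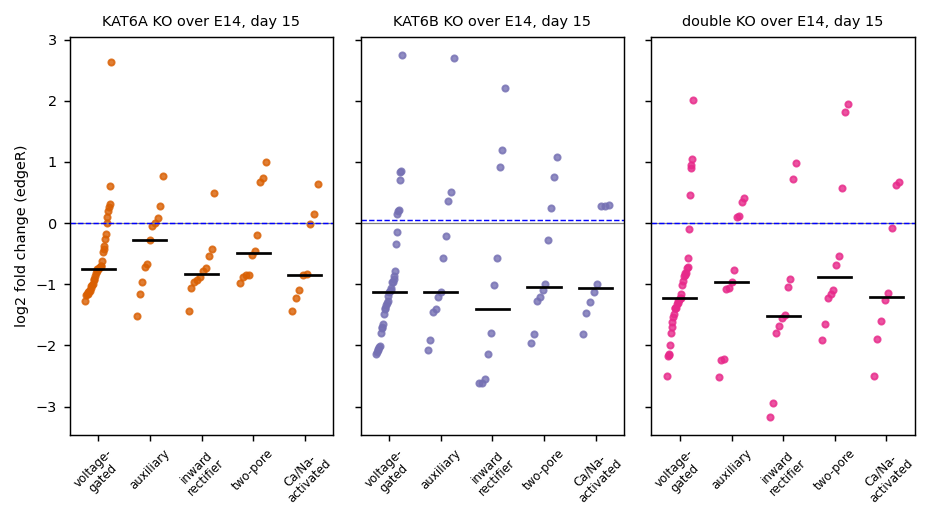
Log2 fold change on day 15 of each described potassium channel gene (points, by class) in KAT6A KO, KAT6B KO and double KO over E14, with the class median as a black bar and the median over all genes as a dashed blue line. Each class median lies below 0 in each knockout.

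Few of these differences passed the test. In edgeR, 1 of 74 genes was called in double KO, where 3.18% of all genes were, and none in KAT6A KO or KAT6B KO, where 0% and 0.0742% were. At an unadjusted p under 0.05 there were 28, 17 and 4 genes in double KO, KAT6B KO and KAT6A KO, where 24.6%, 20% and 11.4% of all genes were, and DESeq2 called 20, 9 and 0, where it called 12.1%, 8.21% and 1.38% of all genes. The biological coefficient of variation on day 15 was 37.8%, against 19.3% on day 0, each over the 12 libraries of all 4 genotypes. In each genotype, the day 15 library with the lowest neuron marker sum also had the lowest sum of voltage-gated genes. In double KO, replicate 3 had 115 CPM of neuron markers and the voltage-gated genes summed to 215 CPM there, against 353 and 373 CPM in replicates 1 and 2 with 644 and 643 CPM of neuron markers. In KAT6A KO the replicate with 259 CPM of neuron markers had 200 CPM of voltage-gated genes and the replicate with 1070 CPM had 462 CPM. E14 libraries had 719, 452 and 487 CPM of voltage-gated genes. The part of neuron markers in the lower channel levels was not tested.

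**Figure D4:**
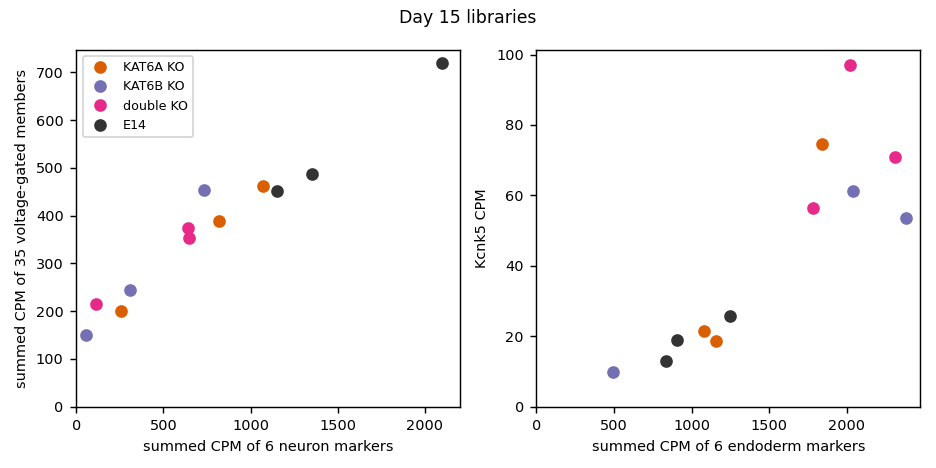
Left, summed CPM of the 35 described voltage-gated genes against summed CPM of 6 neuron markers in the 12 day 15 libraries (1 point per library, coloured by genotype). Right, Kcnk5 in CPM against summed CPM of 6 endoderm markers. In each genotype the library with the lowest neuron marker sum has the lowest voltage-gated sum. The 6 libraries with Kcnk5 at 53.5 CPM or above are those with endoderm sums of 1780 CPM or above. The same 6 libraries also have the highest stem cell sums and the highest endothelium and blood sums, which are not drawn.

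Some genes went against the general direction on day 15. Kcnq5, a subunit of the M-channel that restrains repeated firing, had 70.4, 69.6 and 94.5 CPM in double KO, against 36.1, 47.8 and 36.1 CPM in E14 (log2 fold change 0.95 ± 0.27, adjusted p = 0.0765). Kcnd1 had 12.8, 11.4 and 13.6 CPM in double KO, against 6.99, 6.08 and 7.03 CPM in E14 (log2 fold change 0.90 ± 0.26, adjusted p = 0.0811). Kcnk12, a two-pore channel gene, had 30, 19.1 and 32.8 CPM in double KO, against 8.63, 8.52 and 5.87 CPM in E14 (log2 fold change 1.82 ± 0.63, adjusted p = 0.121). For each of these genes every double KO library was above every E14 library, and none passed edgeR's test. In KAT6B KO, Kcnab1, a cytoplasmic beta subunit of Kcna channels, had 13.3, 10.4 and 6.36 CPM, against 1.27, 1.33 and 1.97 CPM in E14 (log2 fold change 2.70 ± 0.55, adjusted p = 0.0617). The lowest p in KAT6B KO was that of Kcnj10, with a log2 fold change of -2.61 ± 0.49 (adjusted p = 0.0544), beside the lower glial marker sums given above. In E14, mean Kcnj10 was 4.76 CPM on day 0 and 1.85 CPM on day 15. Glial marker sums there were 14.7 to 21.3 CPM on day 0 and 149 to 318 CPM on day 15. The part of glial cells in the Kcnj10 level was not tested.

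Whether the change over time differed by genotype was tested as an interaction of day 15 over day 0 in each knockout with the same change in E14. In double KO, 4 of 74 genes were called, where 2.51% of all genes were, 1.03% higher and 1.48% lower. They included Kcnk5 with a more positive change than in E14, Kcnn3 with a smaller rise and Kcng3 with a larger fall. KAT6A KO and KAT6B KO had no call, where 0% and 0.0436% of all genes had one. At an unadjusted p under 0.05 there were 12 and 15 genes in them and 27 in double KO, where 9.76%, 14.5% and 20.9% of all genes were. DESeq2 called 0 and 3 there and 14 in double KO, where it called 0.793%, 3.59% and 8.83% of all genes.

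Kcnk5 had 97, 56.4 and 70.8 CPM in double KO on day 15, against 19, 25.7 and 12.9 CPM in E14. On day 0 it had 42.5, 42 and 35.5 CPM in double KO, against 71.1, 45.4 and 58.4 CPM in E14. The 2 genotypes did not overlap on either day, with double KO higher on day 15 and lower on day 0. The interaction was 2.51 ± 0.37 on the log2 scale (adjusted p = 0.0116, edgeR), and it was called in all 12 fits that left out a library, with adjusted p up to 0.0364. On day 6 the genotypes overlapped, with 26.5, 24.7 and 22.6 CPM in double KO and 23.9, 31.8 and 26.8 CPM in E14. The day 15 difference alone was 1.95 ± 0.68 and did not pass edgeR's test (adjusted p = 0.121). That fit also held the single knockout libraries of day 15, among them the library labelled KAT6B KO replicate 1. Its biological coefficient of variation was 37.8%, against 27.1% in the interaction fit.

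In the single knockouts Kcnk5 on day 15 differed widely between libraries. It had 74.7, 18.7 and 21.5 CPM in KAT6A KO and 9.69, 53.5 and 61.3 CPM in KAT6B KO, where the lowest was the library labelled KAT6B KO replicate 1. The interactions were 1.22 ± 0.61 (adjusted p = 0.53) in KAT6A KO and 1.39 ± 0.71 (adjusted p = 0.388) in KAT6B KO. On day 15, endoderm markers were higher in every library with Kcnk5 at 53.5 CPM or above than in the remaining libraries. Summed over Gata4, Gata6, Sox17, Foxa2, Afp and Dab2, they had 1840, 1160 and 1080 CPM in KAT6A KO, 496, 2380 and 2040 CPM in KAT6B KO, 2020, 1780 and 2310 CPM in double KO, and 907, 1250 and 832 CPM in E14. The stem cell list on day 15 summed to 412, 369 and 480 CPM in double KO and 184, 299 and 192 CPM in E14, and the higher sum was that of Klf4, with a mean of 384 CPM in double KO and 149 CPM in E14. The other 4 stem cell markers had lower means in double KO than in E14, with Pou5f1 at 11.2 CPM in double KO and 25.7 CPM in E14 and Nanog at 3.85 CPM in double KO and 13.5 CPM in E14. The day 15 libraries with Kcnk5 at 53.5 CPM or above also had the highest stem cell sums, at 358 CPM or above against 299 CPM or below. Their endothelium and blood sums were likewise the highest, at 147 CPM or above against 130 CPM or below. In E14, endoderm sums rose from 25 to 36.1 CPM on day 0 to 832 to 1250 CPM on day 15. Mean Kcnk5 in E14 fell from 58.3 to 19.2 CPM between these days. The part of endoderm cells in the Kcnk5 level was not tested.

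**Figure D5:**
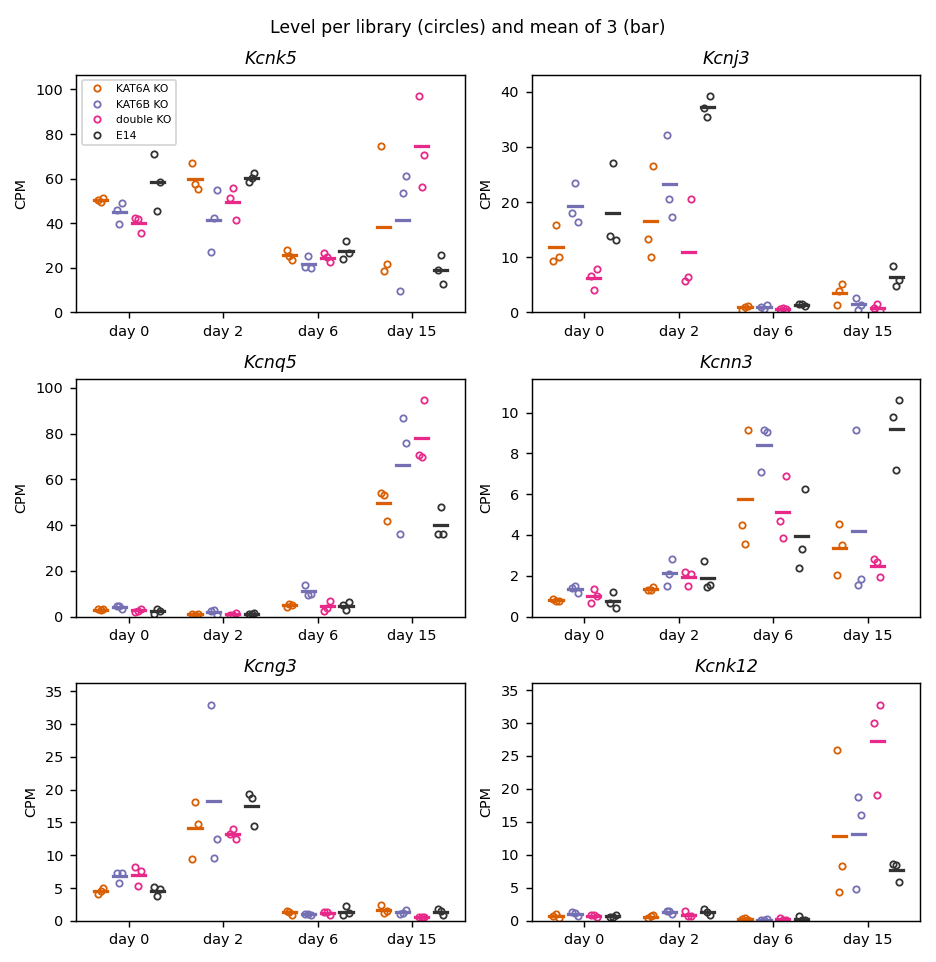
Level in CPM of Kcnk5, Kcnj3, Kcnq5, Kcnn3, Kcng3 and Kcnk12 in all 48 libraries by day, with KAT6A KO, KAT6B KO, double KO and E14 from left to right, circles for libraries and bars for the mean of 3. The double KO circles of Kcnk5 lie above those of E14 on day 15, and those of Kcnj3 below E14 on each day.

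Kcnn3 had 2.8, 2.69 and 1.95 CPM in double KO on day 15, against 9.8, 7.19 and 10.6 CPM in E14 (interaction -2.29 ± 0.55, adjusted p = 0.0487). Kcng3, a modifier subunit of voltage-gated channels, had 0.52, 0.641 and 0.583 CPM in double KO on day 15, against 1.76, 1.52 and 0.953 CPM in E14 (interaction -1.87 ± 0.43, adjusted p = 0.0437). Double KO lay below E14 without overlap on day 15 in both genes. The calls depended on single libraries, being kept in 2 of 12 fits that left out a library for Kcnn3 and in 0 of 12 for Kcng3. Kcnk12 missed the threshold, with an interaction of 1.69 ± 0.42 (adjusted p = 0.0539).

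The results for KAT6B KO on day 15 turned on 1 library. Without the library labelled KAT6B KO replicate 1, 14 described genes were called against E14, 2 higher and 12 lower, where 9.33% of all genes were called, and the median of 74 genes was -2.0. The called genes then included Kcnq5 and Kcnab1, which were higher by 0.99 ± 0.18 and 2.41 ± 0.57, and Kcnb2, Kcnd3, Kcnh5, Kcnv1, Kcnab2, Kcnmb4, Kcnj9, Kcnj10, Kcnn2, Kcnn3 and Kcnt1, which were lower. The interaction then called 20 genes, 2 higher and 18 lower, where 6.81% of all genes were called. The higher ones were Kcnk5 at 1.91 ± 0.34 (adjusted p = 0.0119, edgeR) and Kcnab1. That library also held the highest Kcnj2 and Kcnj8 values on day 15, at 45.1 and 31.5 CPM, against 11.6 and 4.19 CPM for Kcnj2 and 6.11 and 1.75 CPM for Kcnj8 in the other 2 KAT6B KO libraries. In E14, Kcnj2 had 8.29, 3.18 and 15.4 CPM and Kcnj8 had 3.18, 0.623 and 4.76 CPM. Leaving that library out leaves 2 KAT6B KO libraries, with 54.5 and 307 CPM of neuron markers.

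Of the 76 genes, 33 overlap another gene of the table on the genome, among them Kcnq5 and Kcnb2, and reads of overlapping genes may be divided between them.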

How the data were processed

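RNA was measured in 48 bulk libraries of E14 mouse cells in 16 groups of 3. The authors deposited raw counts per gene; per the submitters' processing notes, reads were aligned with HISAT2 to GRCm39, and the counting tool, annotation and strand setting were not given in the sources used here, although the library kit keeps strand per the labels' protocols. The table's 48 repeated identifiers were left out, which left 36935 genes. CPM values use TMM factors (edgeR 4.0.16) over all libraries. Tests were edgeR quasi-likelihood tests with Benjamini-Hochberg adjustment over all genes that passed filterByExpr (minimum count 10), called at 0.05: 4 comparisons between days in E14, 12 of a knockout with E14 on the same day, 3 of day 15 with day 0 in a knockout and 3 interactions. Each fit held the libraries of its day, or of the genotypes concerned. Alternatives were relative log expression factors, no filter, DESeq2 1.42.0, replicate number as a block, and leaving out each library of the groups compared. The members and lists were chosen with earlier results of these data known. For each comparison the text names up to 8 called genes per direction by size or the 3 lowest p, plus the highest and most changed of each class, and up to 4 called genes of the partner and transport lists; others named were chosen after their values were seen, and some genes the rule picks are not reported here. Replicate numbers are not said to pair samples: of 19 comparisons, 1 had all 3 correlations of same-numbered libraries above 0.1. No 2 replicates were identical. Exon lengths came from GENCODE M21 and motifs and promoter windows from RefSeq on GRCm38.p6. In simulated data, 20% of genes changed 2-fold and 66% changed 4-fold were found for double KO against E14 on day 15, and 29% and 65% for E14 day 15 against day 0. Each simulation changed 200 genes. The E14 test of the real data called 14284, so the E14 shares may not hold for it. PCR duplicates were not marked by molecular identifiers, so the floor of 3 counts covers counting error only.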

Additional observations from a re-analysis of the deposited data

Results flagged for a closer look

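Interaction tests in double KO picked out potassium channel genes whose change on day 15 over day 0 differed from that of E14. Kcnk5 had an interaction of 2.51 on the log2 scale, and its level in all 3 double KO libraries was above E14 on day 15 and below E14 on day 0. Kcnn3 had -2.29 and Kcng3 -1.87, with all 3 double KO libraries below E14 on day 15 in each. Kcnk5 was called in all 12 fits that left out a library, Kcnn3 in 2 of 12 and Kcng3 in 0 of 12. The part of the differing marker sums of neurons and endoderm in these results was not tested.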

How the results depend on the processing

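Counts of called potassium channel genes over day 15 against day 0 stayed within 1.5 times: 55 to 57 in E14, 49 to 58 in KAT6A KO, 33 to 44 in KAT6B KO and 43 to 53 in double KO when each library was left out, and leaving out the genes described only through day 15, an alternative added after seeing the data, gave 42, 40, 25 and 35. E14 day 15 against day 6 gave 52 to 57 and day 6 against day 0 35 to 40. E14 day 2 against day 0 gave 2 to 19, and 27 with DESeq2. With a level of 0.5 or 2 CPM in the rule, 81 or 67 genes would be described.

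For double KO against E14 on day 0, 3 genes were called without the low-count filter, with DESeq2 and with the replicate block, and 0 to 3 when a library was left out. On day 2 the count was 3 with DESeq2, 1 with the replicate block and 0 to 1 without a library. On day 15 it was 20 with DESeq2 and 0 with the replicate block. It was also 0 without any 1 of the 6 double KO and E14 libraries of that day. The single knockout libraries in the same fit were not left out for this comparison. The double KO interaction was 14 with DESeq2 and 1 to 5 without a library. KAT6B KO gave 0 to 3 without a library on day 0, on day 6 5 with DESeq2 and 3 with the replicate block, on day 15 9 with DESeq2 and 0 to 14 without a library, and for the interaction 3 with DESeq2 and 0 to 20 without a library. The block moved no other count of calls by over 1.5 times, and same-numbered libraries correlated between -0.274 and 0.478. The cause of these differences was not tested.

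Direction changed for log2 fold changes that were not called. In E14 day 15 against day 0, Kcnk1 had 0.022 without the filter, 0.097 without E14 day 0 replicate 1, and 0.071 and 0.015 without E14 day 15 replicates 1 and 2. Kcnn2 ran between -0.13 without E14 day 0 replicate 3 and 0.180. On day 2 against day 0, Kcnk5 ran between -0.11 without E14 day 0 replicate 2 and 0.222. With 3 libraries a group and a day 15 coefficient of variation of 37.8%, small differences were not detectable.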
